A study of Mus musculus with 207 samples.

Results

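The cells described here are the 34 young pancreatic islet beta cells with the highest, and the 34 with the lowest, level of a set of unfolded-protein-response genes, out of 138 young cells and 207 cells in all. They were chosen by a score measured in these cells, the mean log2(TPM + 1) of 8 genes, Hspa5, Hsp90b1, Sdf2l1, Pdia4, Herpud1, Dnajb11, Manf and Creld2. Cells were ranked by it within cell numbers 1 to 54 and within 55 to 138 of the labels, and the top 25% (13 and 21 cells) and the bottom 25% (13 and 21 cells) of each stretch were joined into a score-high and a score-low group. The 70 cells in between are called the middle cells. Because the 8 genes chose the cells, their difference between the groups is a description of the choice and not a result.

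All cells came from male mice, and the labels give no strain, genotype, treatment or animal. The young cells were from mice aged 3 months, and 69 old cells from mice aged 26 months serve as cells that the ranking did not use. Single cells were captured on a Fluidigm C1 microfluidic chip, their cDNA was amplified on the chip, and the deposited values are TPM, which are scaled for transcript length and to the same total in each cell. No cell can be assigned to an animal, so each age counts as 1 sample, cells are not replicates, and the comparison of score-high with score-low cells has no test. Differences are given as the log2 ratio of mean TPM in score-high over score-low cells after adding 1 TPM to each mean, with the spread between cells.

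The unfolded protein response is the programme by which a cell adjusts the folding capacity of its endoplasmic reticulum (ER) to the load of newly made secretory protein. Its sensors are the kinases Perk and Ire1 and the membrane-bound factor Atf6. Ire1 splices the mRNA of Xbp1, Atf6 and spliced Xbp1 switch on chaperones and degradation factors, and Perk slows translation while favouring that of Atf4 and its targets. Beta cells carry a heavy load of proinsulin, and this response is active in them also without disease.

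The 8 genes of the score encode ER proteins. Hspa5 (BiP) and Hsp90b1 (Grp94) are the major ER chaperones, Sdf2l1 and Dnajb11 are cofactors of BiP, Pdia4 is a disulfide isomerase, Herpud1 serves ER-associated degradation, and Manf and Creld2 are small ER proteins that can be secreted. Promoters of such genes can hold the ER stress response element (ERSE, CCAAT and CCACG with 9 bases of any kind between them) or its second form (ERSE-II, ATTGG and CCACG with 1 base between them), and these promoters are printed because they are what several of the score genes have in common apart from their level. In windows of 250 bases before to 50 bases after the start site, from RefSeq promoters of build GRCm38.p6 and searched on both strands, 5 of the 7 score genes with a window held one of the elements, against 0.181% of 27025 genes. The 8 genes were picked as genes of the unfolded protein response, whose promoters can hold these elements. This share therefore describes that choice and is not a result. In the sequences below capitals mark the elements, which do not overlap. Each is given 5′ to 3′ on the strand of its gene, with the 250 bases before the start site of Hspa5, Hsp90b1 and Herpud1 and the stretch around the element of Creld2 and Dnajb11.
Hspa5, chr2:34771840-34772089, plus strand: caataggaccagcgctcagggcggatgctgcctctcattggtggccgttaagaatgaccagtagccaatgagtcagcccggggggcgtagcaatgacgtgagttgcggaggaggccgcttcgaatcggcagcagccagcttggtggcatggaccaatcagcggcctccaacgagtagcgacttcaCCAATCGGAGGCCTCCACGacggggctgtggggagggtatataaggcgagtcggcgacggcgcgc
Hsp90b1, chr10:86705445-86705694, minus strand: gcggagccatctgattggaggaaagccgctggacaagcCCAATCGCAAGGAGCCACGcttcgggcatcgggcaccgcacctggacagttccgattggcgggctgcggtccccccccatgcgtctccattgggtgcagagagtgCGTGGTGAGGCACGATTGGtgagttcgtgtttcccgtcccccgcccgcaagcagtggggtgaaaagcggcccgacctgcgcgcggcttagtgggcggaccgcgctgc
Herpud1, chr8:94386179-94386428, plus strand: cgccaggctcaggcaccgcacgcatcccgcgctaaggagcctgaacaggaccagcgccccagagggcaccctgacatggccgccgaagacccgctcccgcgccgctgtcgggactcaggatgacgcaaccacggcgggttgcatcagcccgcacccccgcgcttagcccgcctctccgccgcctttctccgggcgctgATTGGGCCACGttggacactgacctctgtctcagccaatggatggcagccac
Creld2, chr15:88819500-88819559, plus strand: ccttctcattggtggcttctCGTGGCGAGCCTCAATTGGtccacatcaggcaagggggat
Dnajb11, chr16:22857844-22857871, plus strand: cggcggcgATTGGCCCACGcctggctgc

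The ERSE of Hspa5 began 65 bases before the start site (-65). Hsp90b1 held an ERSE at -212 and another, on the opposite strand, at -107, and Creld2 held one on the opposite strand at -126. The ERSE-II of Herpud1 lay at -52, and that of Dnajb11 at position 8 after the start. The windows of Sdf2l1 and Pdia4 did not hold these letters, and the promoter of Manf was not analysed here. A match of letters is a description of the window and shows no binding.

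The score averaged 7.22 ± 0.608 in score-high cells and 4.28 ± 0.934 in score-low cells (SD between cells, n = 34 each), with 5.90 ± 0.716 in the 70 middle cells. Within cells 1 to 54, the lowest score inside the high group was 6.13 and the highest outside it 5.84. The highest score inside the low group there was 4.05 and the next cell outside it had 4.18. Within cells 55 to 138, the score-high group ended at 7.01, with 6.98 just outside, and the score-low group at 5.58, with 5.67 just outside. The score is thus a range without a gap, and the limits fall among cells with nearly equal values.

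**Figure D1:**
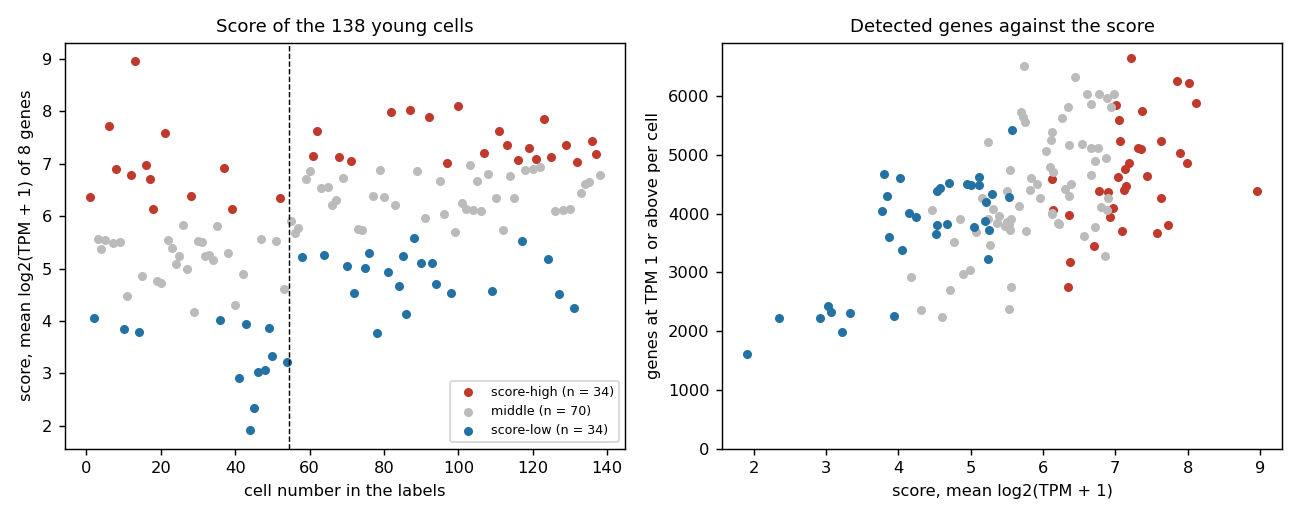
Left, the score of each of the 138 young cells against its cell number in the labels, with score-high, middle and score-low cells in red, grey and blue and a dashed line between cells 54 and 55. Right, the number of genes at TPM 1 or above in each cell against its score. Score-low cells crowd into cells 40 to 54, and detected genes are more numerous at high scores.

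The 8 genes varied together only loosely from cell to cell. The median Spearman rho over their 28 pairs was 0.21 among the 54 cells numbered 1 to 54 and 0.18 among the 84 cells numbered 55 to 138. The highest pair in the second stretch was Hsp90b1 with Hspa5 at 0.56, and the lowest was Dnajb11 with Herpud1 at -0.04. Each gene's rho with the mean of the other 7 lay between 0.23 for Creld2 and 0.48 for Pdia4 in the first stretch, and between 0.12 for Herpud1 and 0.46 for Sdf2l1 in the second. Among the 69 old cells the same rho ran from 0.34 for Sdf2l1 to 0.72 for Hspa5. These correlations carry no test, and the cells of a stretch share depth and the fixed TPM total.

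Hspa5 spanned 95.8 to 3083 TPM with a median of 1014 in score-high cells, and 11.0 to 1281 TPM with a median of 379 in score-low cells. Hsp90b1 had a median of 901 TPM in score-high and 395 TPM in score-low cells. These chaperones were seen in every young cell at different levels, and the ranges of the groups overlapped. The rarer transcripts separated by presence as well. Sdf2l1 spanned 1.53 to 459.8 TPM with a median of 178 in score-high cells, and 0 to 322 TPM with a median of 2.69 in score-low cells. Dnajb11 was at TPM 1 or above in 29 score-high and 11 score-low cells, and Creld2 in 33 score-high and 15 score-low cells. Herpud1 had a median of 212 TPM in score-high and 28.6 TPM in score-low cells, and its mean in all of cells 55 to 86 (499 TPM) was above that in cells 87 to 138 (220.1 TPM). Pdia4 had a median of 72.8 TPM in score-high and 3.68 TPM in score-low cells, and Manf 188 TPM in score-high and 38.9 TPM in score-low cells.

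**Figure D2:**
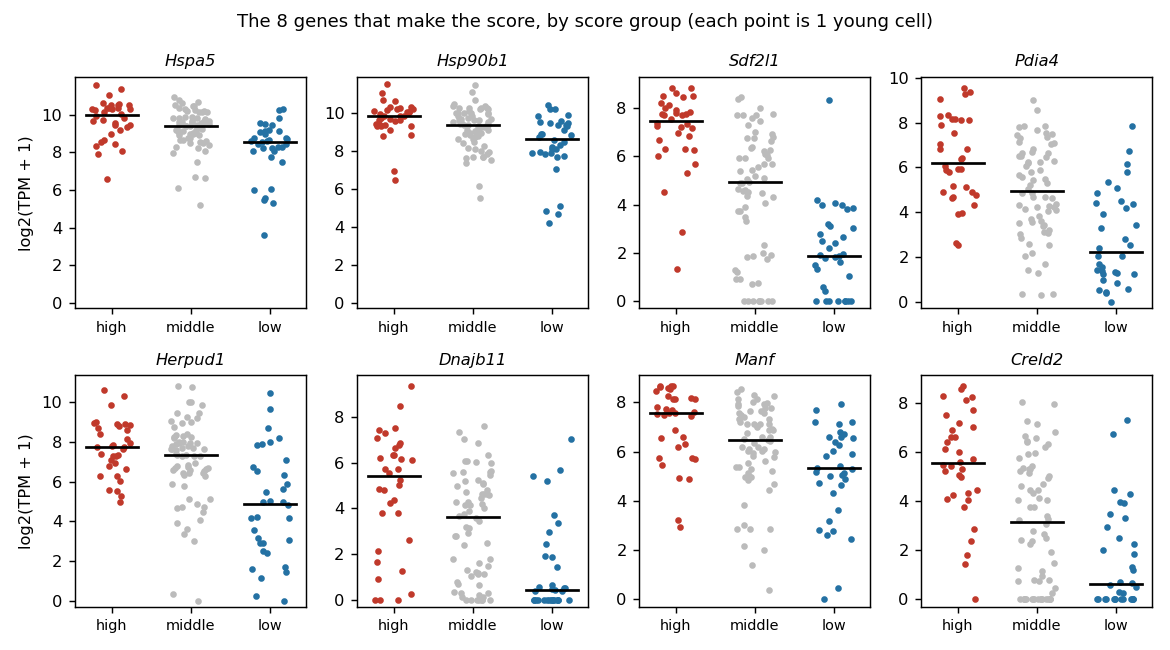
Each panel shows 1 of the 8 score genes as log2(TPM + 1) per young cell in the score-high, middle and score-low groups, with a black line at the median. The groups overlap for each gene, since a cell's place depends on the mean of all 8.

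Score-high cells also had more detected genes, and this bears on every gene below. A score-high cell had 2746 to 6654 genes at TPM 1 or above, with a median of 4603.5, and a score-low cell had 1604 to 5426, with a median of 3902.5. Within cells 1 to 54 the medians were 3972 in score-high and 2320 in score-low cells, and within 55 to 138 they were 5095 in score-high and 4189 in score-low cells. Spearman's rho of the score with detected genes was 0.48 over the 54 cells of the first stretch and 0.44 over the 84 cells of the second. Cells 40 to 54, which had a median of 2320 detected genes, gave 9 of the 34 score-low cells and 1 of the 34 score-high cells. Cells 1 to 39 gave 12 score-high and 4 score-low cells, cells 55 to 86 gave 5 score-high and 11 score-low cells, and cells 87 to 138 gave 16 score-high and 10 score-low cells. The part of detected genes in the differences was not tested, and a second ranking is given beside each gene list and the genes described most fully, by the score after removing its linear trend on detected genes within each stretch. For genes without a value from it, only the first ranking is shown. In the second ranking, which kept 26 of the 34 score-high and 28 of the 34 score-low cells, median detected genes were 4268 in score-high and 4244 in score-low cells.

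Insulin transcripts took similar shares of the TPM of both groups. Ins1 and Ins2 together made up 52.6% ± 8.90 of TPM in score-high cells and 55.3% ± 12.8 in score-low cells (SD between cells, n = 34 each), a difference smaller than the spread between cells. Ins2 spanned 317883 to 636452 TPM with a median of 487068 in score-high cells, and 138682 to 736904 TPM with a median of 494311 in score-low cells. Its log2 ratio was -0.08, and 13 of the 34 score-high cells lay above the score-low median. Ins1, the other insulin gene of the mouse, had a median of 47661 TPM in score-high and 48525 TPM in score-low cells, and a log2 ratio of 0.04. Reads of the insulin genes can be shared, since they are close copies, so their sum is more certain than either.

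The stretches differed in this share. Among cells 1 to 54 it averaged 50.3% ± 9.32 in the 13 score-high cells and 58.7% ± 15.7 in the 13 score-low cells. Among cells 55 to 138 it averaged 54.1% ± 8.53 in the 21 score-high cells and 53.2% ± 10.6 in the 21 score-low cells. Without cells 40 to 54, the share was 52.1% in score-high and 51.9% in score-low cells. After adjustment for detected genes it was 55.4% ± 9.75 in score-high and 52.5% ± 12.0 in score-low cells.

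**Figure D3:**
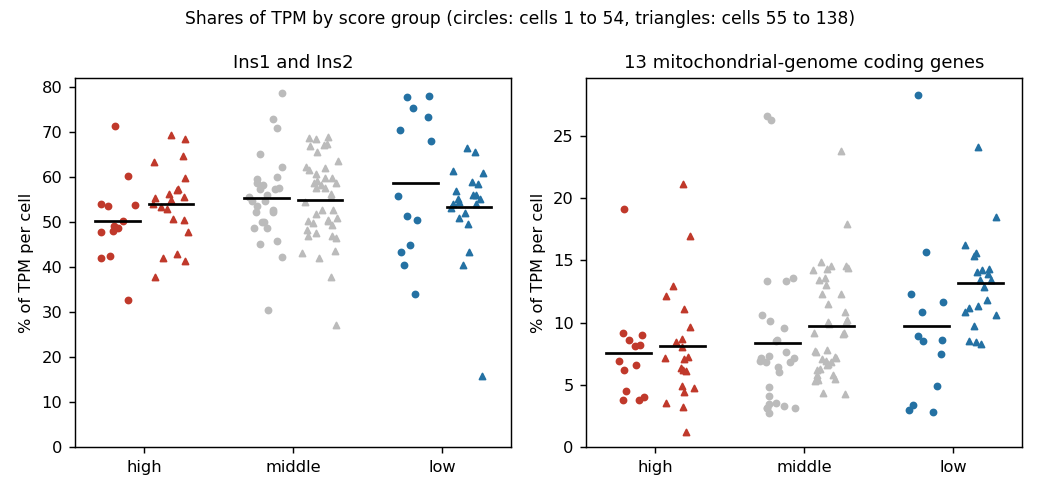
Share of each young cell's TPM taken by Ins1 and Ins2 (left) and by the 13 coding genes of the mitochondrial genome (right) in the score-high, middle and score-low groups, with circles for cells 1 to 54, triangles for cells 55 to 138 and black lines at the means. The insulin share overlaps throughout, while the mitochondrial share of cells 55 to 138 averages 8.15% in score-high and 13.2% in score-low cells.

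Iapp, the gene of amylin, a peptide hormone stored with insulin in the granules, was higher in score-high cells. It spanned 20340.3 to 163074 TPM with a median of 77477 in score-high cells, and 1227 to 110178 TPM with a median of 57477 in score-low cells. The ranges overlapped, and 27 of the 34 score-high cells lay above the score-low median. Its log2 ratio was 0.59, with 0.45 within cells 1 to 54, 0.68 within cells 55 to 138, 0.31 after adjustment for detected genes and 0.83 among old cells. The median log2 ratios of all genes were, in the same order, 0.33, 0.75, 0.19, 0.05 and 0.75. Iapp thus lay below all genes within cells 1 to 54 and near them among old cells. The SD of its log2(TPM + 1) between cells was 0.99, larger than its log2 ratio.

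Over all genes, more were higher than lower in score-high cells. Of 5164 genes outside the score with a mean of 10 TPM or above in either group, 2124 (41.1%) stood at least 1.5-fold higher in score-high cells, 1077 (20.9%) stood as far below, and the median log2 ratio was 0.33. In the ranking adjusted for detected genes these figures were 30.3% higher and 28.2% lower of 5087 genes, with a median of 0.05. With TPM rescaled after leaving out the insulin genes and the genes of the mitochondrial genome, 33.3% were higher and 31.3% lower of 8537 genes, with a median of 0.02. Rescaling ranked the cells again and kept 28 of the 34 score-high and 30 of the 34 score-low cells, and more genes reached 10 TPM. The excess of higher genes was small in both of these. It was larger as a difference of mean log2(TPM + 1) in the first ranking, with 49.4% higher, 2.89% lower and a median of 0.58. Each gene list below is read against these shares and the median of all genes in the same ranking, where adjustment means the ranking adjusted for detected genes.

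The other folding factors of the ER were the list that lay farthest above all genes after adjustment. Of its 31 genes, 27 had a mean of 10 TPM or above, and of these 21 were at least 1.5-fold higher and 1 lower, where the shares over all genes were 41.1% and 20.9%. The median log2 ratio of the list was 1.09, against 0.33 for all genes, and after adjustment it was 0.89, against 0.05. After adjustment 18 of 27 were higher and 2 lower, against 30.3% and 28.2% of all genes. Within cells 1 to 54 the list median was 1.19, against 0.75 for all genes, and within cells 55 to 138 it was 1.06, against 0.19, so the list stood less far above all genes in the first stretch. The mean log2(TPM + 1) of the list had a rho with the score of 0.61 over 54 cells and 0.61 over 84 cells. With a linear trend on detected genes taken out of both, rho was 0.43 over 54 cells and 0.44 over 84 cells.

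Pdia6, a disulfide isomerase that also acts on the sensor Ire1, spanned 14.1 to 2513 TPM with a median of 472 in score-high cells, and 0.872 to 1252 TPM with a median of 52.2 in score-low cells. In all, 33 of 34 score-high cells lay above the score-low median, although the ranges overlapped, and the middle cells had a median of 223 TPM. The log2 ratio was 1.59, and 1.08 after adjustment. Fkbp11, an ER prolyl isomerase, had a median of 197 TPM in score-high cells and 1.67 TPM in score-low cells, with 44.2 TPM in the middle cells. It reached at most 885 TPM in score-high and 203 TPM in score-low cells, and was at TPM 1 or above in 27 score-high and 20 score-low cells. Its log2 ratio was 2.88, with 1.47 within cells 1 to 54, 3.38 within cells 55 to 138 and 2.64 after adjustment.

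The lectin chaperone Calr spanned 44.1 to 743 TPM with a median of 325 in score-high cells, and 0.930 to 461 TPM with a median of 145 in score-low cells, a log2 ratio of 1.17, or 0.86 after adjustment. Its partner Canx had a smaller log2 ratio of 0.56, and 0.13 after adjustment. Pdia3, the isomerase that works with both, had a log2 ratio of 1.38, or 1.02 after adjustment. Hyou1, a nucleotide exchange factor of BiP, had medians of 31.2 TPM in score-high and 4.83 TPM in score-low cells and a log2 ratio of 1.58. The BiP cofactors Dnajc3 and Dnajb9 had log2 ratios of 1.02 and 1.00. Ero1b, the oxidase that recharges disulfide isomerases in beta cells, differed less, with medians of 209 TPM in score-high and 162 TPM in score-low cells and a log2 ratio of 0.50. Tmx1, a membrane-bound thioredoxin-like isomerase, was the 1 member at least 1.5-fold lower (-1.06), while its median was 3.32 TPM in score-high and 0.58 TPM in score-low cells, so that few cells set its mean. Sdf2, the relative of the score gene Sdf2l1, had a log2 ratio of -0.06.

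Some of these genes carry the same promoter element as the score genes, and 3 of them are shown with the element in capitals.
Pdia6, chr12:17266471-17266530, plus strand: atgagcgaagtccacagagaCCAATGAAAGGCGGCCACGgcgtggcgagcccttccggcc
Calr, chr8:84847054-84847113, minus strand: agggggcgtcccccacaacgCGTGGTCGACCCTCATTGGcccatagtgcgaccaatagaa
Dnajc3, chr14:118937807-118937866, plus strand: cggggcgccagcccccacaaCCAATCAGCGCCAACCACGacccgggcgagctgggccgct

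The element began at -98 in Pdia6, at -162 on the opposite strand in Calr and at -105 in Dnajc3. ERSE was found in 0.119% and ERSE-II in 0.0365% of all 32851 windows. Outside the score, 39 genes of the table held either element, and 14 of them had a mean of 10 TPM or above. Of these 14, 8 were at least 1.5-fold higher and 1 lower, with a median log2 ratio of 0.90, against 43.3% higher and a median of 0.40 for the 3953 such genes with a window. After adjustment 8 of the 14 were higher and 1 lower, with a median of 0.68, where all genes had 30.3%, 28.2% and 0.05. Among old cells 7 of 12 were higher and 3 lower, with a median of 1.47, where all genes had 53.6%, 21.1% and 0.75. In these 2 rankings all genes include those without a window. Several of the 14, among them Pdia6, Calr, Dnajc3, Canx, Ero1b, Derl3 and Krtcap2, belong to the ER lists. These counts therefore overlap with those of the lists. The highest of the 14, Rcl1 at 2.84, had 79.0% of its score-high total in 1 cell. Lrif1, at 1.46, had 51.1% in 1 cell and stood at -0.36 within cells 55 to 138. The lowest of the 14 was Alg12, a mannosyltransferase of N-glycan synthesis, at -1.57, but 1 cell with 322 TPM held 94.6% of its score-low total. Alg12 was at TPM 1 or above in 9 score-high and 3 score-low cells, and its ratio within cells 55 to 138 was 1.65.

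**Figure D4:**
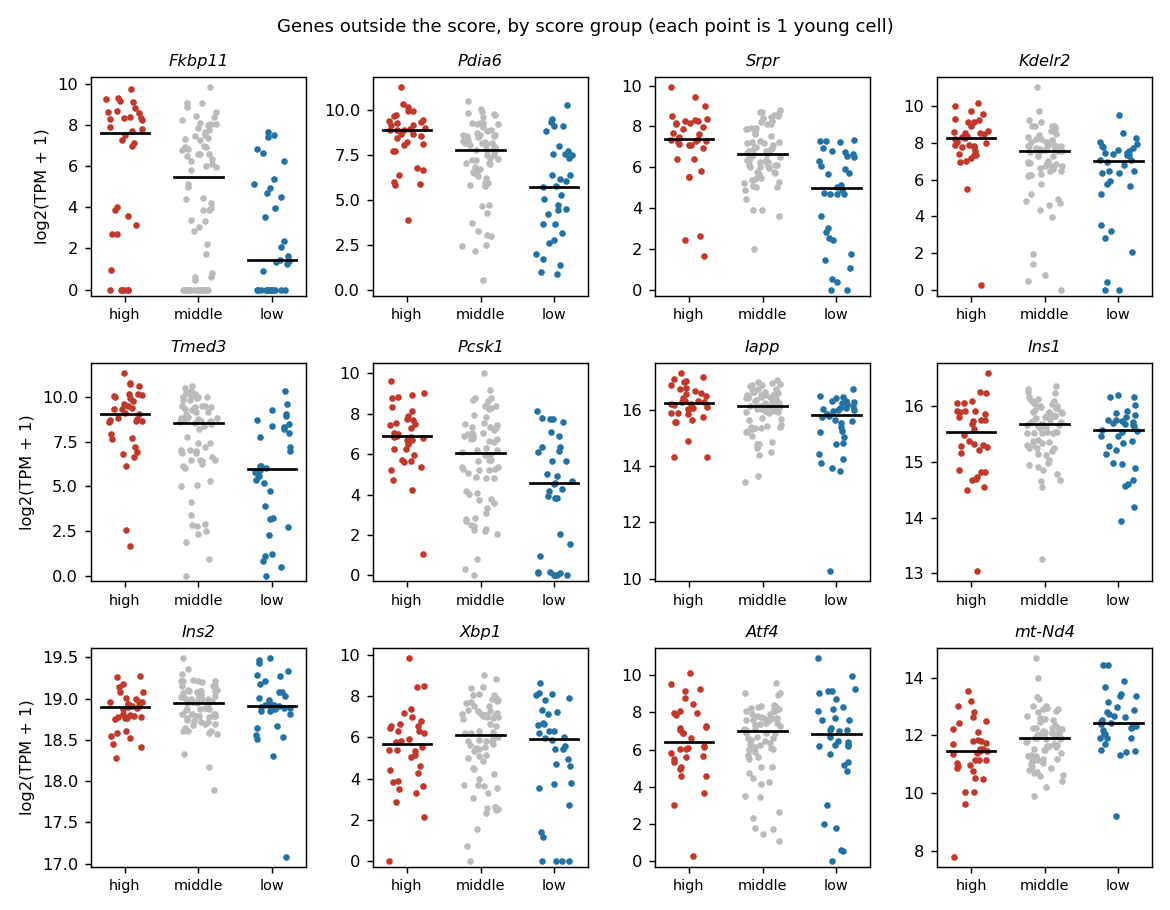
Each panel shows a gene outside the score as log2(TPM + 1) per young cell in the score-high, middle and score-low groups, with a black line at the median and a vertical axis of its own. Genes of the secretory pathway step down over the 3 groups, the insulin genes stay level, and mt-Nd4 is highest in score-low cells.

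The machinery that brings nascent chains into the ER was also higher. Of the 24 genes for translocon, signal recognition and signal peptidase, 23 had a mean of 10 TPM or above. Of these, 19 were at least 1.5-fold higher and 0 lower, where 41.1% and 20.9% of all genes were. The median log2 ratio was 0.90, against 0.33. After adjustment 14 of 23 were higher and 0 lower, against 30.3% and 28.2%, with a median of 0.72, against 0.05. Srpr, the receptor subunit that docks the signal recognition particle on the ER, spanned 2.13 to 967 TPM with a median of 166 in score-high cells, and 0 to 163 TPM with a median of 30.4 in score-low cells. The score-high median thus lay above the highest score-low cell, and the middle cells had a median of 101 TPM. The log2 ratio of Srpr was 2.06, with 2.40 within cells 1 to 54, 1.80 within cells 55 to 138 and 1.59 after adjustment. Sec11a, a catalytic subunit of the signal peptidase, had a log2 ratio of 1.81, or 1.53 after adjustment. At the low end were Srp72, a protein of the signal recognition particle, at 0.24 and the translocon-associated Sec62 at -0.03.

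Genes of N-glycosylation, which attaches sugar chains to nascent proteins in the ER, were higher too. Of 22, 19 had a mean of 10 TPM or above. Of these, 15 were at least 1.5-fold higher and 0 lower, where 41.1% and 20.9% of all genes were. The list median was 1.10, against 0.33. After adjustment 12 of 19 were higher and 1 lower, against 30.3% and 28.2%, with a median of 0.82, against 0.05. Alg5, which makes the glucose donor for the glycan precursor, was at TPM 1 or above in 21 score-high and 7 score-low cells and had a log2 ratio of 2.93, or 2.43 after adjustment. Rpn1, a subunit of the oligosaccharyltransferase, had medians of 70.5 TPM in score-high and 8.36 TPM in score-low cells and a log2 ratio of 1.86, or 1.33 after adjustment. The lowest were the catalytic subunit Stt3b at -0.19 and Prkcsh, the beta subunit of glucosidase II, at -0.39, and within cells 55 to 138 these stood at 1.43 and 0.73.

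For traffic between ER and Golgi, 40 of 41 listed genes were matched and 38 had a mean of 10 TPM or above. Of these, 26 were at least 1.5-fold higher and 2 lower, where 41.1% and 20.9% of all genes were. The list median was 0.89, against 0.33. After adjustment 19 of 37 were higher and 4 lower, against 30.3% and 28.2%, with a median of 0.58, against 0.05. Kdelr2, a receptor that returns escaped chaperones to the ER, spanned 0.203 to 1129.6 TPM with a median of 299.7 in score-high cells, and 0 to 715 TPM with a median of 126 in score-low cells, a log2 ratio of 1.37, or 1.20 after adjustment. Bet1, a SNARE of ER-to-Golgi fusion, was at TPM 1 or above in 31 score-high and 15 score-low cells, with a log2 ratio of 2.34, made of 5.15 within cells 1 to 54 and 1.85 within cells 55 to 138, or 1.12 after adjustment. Mcfd2, a cargo-receptor subunit, stood at 2.47, or 1.43 after adjustment. The 2 members that were lower were Kdelr1 at -0.72 and the coat protein Sec24a at -0.90, and in both the median was higher in score-high cells (11.1 against 2.81 TPM for Kdelr1, 0.576 against 0 TPM for Sec24a).

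Genes of ER-associated degradation, which returns misfolded proteins to the cytosol for destruction, lay nearer to all genes by the list median, though not by the adjusted counts. Of 26, 20 had a mean of 10 TPM or above. Of these, 12 were at least 1.5-fold higher and 1 lower, where 41.1% and 20.9% of all genes were. The list median was 0.71, against 0.33. After adjustment 11 of 19 were higher and 1 lower, against 30.3% and 28.2%, with a median of 0.46, against 0.05. Edem2, which trims mannose from misfolded glycoproteins, had a log2 ratio of 2.73, or 1.93 after adjustment. Derl3, a channel-associated factor that also carries one of the promoter elements, was at TPM 1 or above in 10 score-high cells and 1 score-low cell. Ufd1, a partner of the extracting ATPase, was the lowest at -0.90.

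The sensors and their transcription factors did not differ as one. Xbp1 spanned 0 to 922 TPM with a median of 49.7 in score-high cells, and 0 to 396 TPM with a median of 60.0 in score-low cells. Its log2 ratio was 0.09, with 0.72 within cells 1 to 54 and -0.36 within cells 55 to 138, and 15 of the 34 score-high cells lay above the score-low median. TPM per gene does not show whether Xbp1 was spliced. Eif2ak3, which encodes Perk, was at TPM 1 or above in 25 score-high and 7 score-low cells, and its log2 ratio of 3.21 was -0.02 after adjustment for detected genes. Atf6 had a log2 ratio of 1.33, or 0.61 after adjustment. Ern1, which encodes Ire1, was at TPM 1 or above in 5 score-high and 2 score-low cells. Creb3, an ER-bound transcription factor, had medians of 62.0 TPM in score-high and 0.65 TPM in score-low cells and a log2 ratio of 2.47, or 1.56 after adjustment. Of the list's 16 genes, 9 had a mean of 10 TPM or above. Of these, 5 were at least 1.5-fold higher and 0 lower, where 41.1% and 20.9% of all genes were. The list median was 1.05, against 0.33. After adjustment 4 of 10 were higher and 1 lower, against 30.3% and 28.2%, with a median of 0.21, against 0.05.

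Targets of the integrated stress response, the arm downstream of Perk, lay close to all genes. Of 30, 23 had a mean of 10 TPM or above. Of these, 9 were at least 1.5-fold higher and 3 lower, where 41.1% and 20.9% of all genes were. The list median was 0.45, against 0.33 for all genes. After adjustment it was -0.15, against 0.05, with 3 of 22 higher and 4 lower, against 30.3% and 28.2%. The rho of the list's mean level with the score was 0.25 over 54 cells, 0.07 over 84 cells and 0.45 over the 69 old cells, and freed of detected genes it was -0.08 over 54 cells and -0.20 over 84 cells. Atf4 and Ddit3 are the best-known of these genes and are given although they were picked after their values were seen. Atf4 spanned 0.212 to 1130.3 TPM with a median of 85.1 in score-high cells, and 0 to 1920.5 TPM with a median of 114 in score-low cells, a log2 ratio of -0.37, or -0.02 after adjustment. Ddit3, which encodes the factor Chop, had a log2 ratio of -0.18. The highest of the list was the tryptophanyl-tRNA synthetase gene Wars at 2.09, and the lowest were Nupr1 at -0.83 and the serine synthesis gene Phgdh at -0.89. The groups are named by the score alone.

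**Figure D5:**
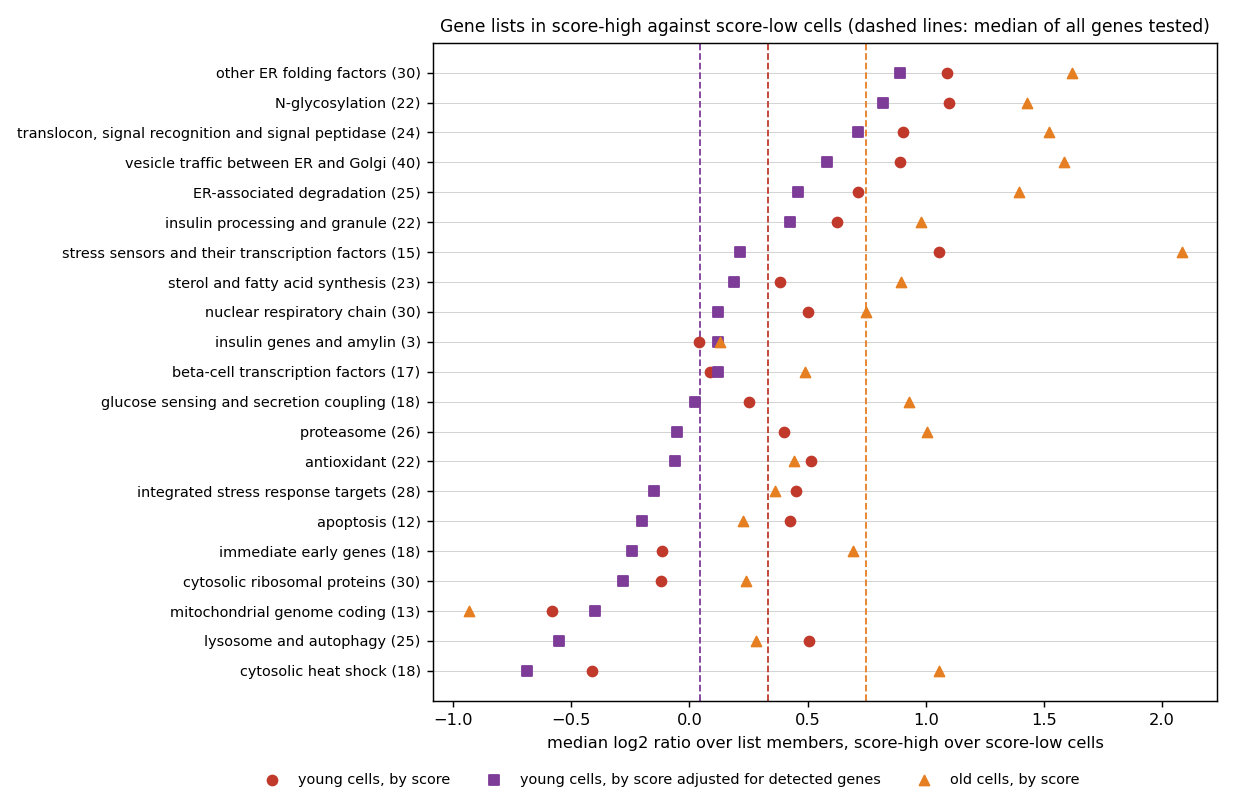
Median log2 ratio of mean TPM in score-high over score-low cells for each gene list except the score genes and the sparse immature or disallowed genes, with the number of its members at a mean TPM of 1 or above, for young cells by score, young cells by the score adjusted for detected genes, and old cells by score. Dashed lines give the median of all genes tested in the same ranking, 0.33, 0.05 and 0.75. ER folding, N-glycosylation, translocon and ER-to-Golgi lists lie right of their lines in each ranking.

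Genes for insulin processing and the secretory granule lay nearer to all genes than the ER lists did. Of 23, 21 had a mean of 10 TPM or above, 11 of these were at least 1.5-fold higher and 1 lower, where 41.1% and 20.9% of all genes were, and the list median was 0.63, against 0.33. After adjustment 7 of 21 were higher and 0 lower, where 30.3% and 28.2% of all genes were, and the median was 0.42, against 0.05. The adjusted share of higher members was thus near that of all genes. Pcsk1, a convertase that cuts proinsulin, spanned 1.10 to 785 TPM with a median of 118 in score-high cells, and 0 to 277 TPM with a median of 22.4 in score-low cells. In all, 32 of 34 score-high cells lay above the score-low median, and the log2 ratio was 1.62, or 0.96 after adjustment. The other convertase, Pcsk2, had a log2 ratio of 0.84, and the carboxypeptidase Cpe, which trims the cut ends, had 1.00. Ptprn, a membrane protein of the granule, stood at 1.61 and Snap25, a SNARE of exocytosis, at 1.58. The granins were unequal, with Scg3 at 1.14, Chgb at 0.92, Scg2 at 0.26 and Chga at 0.19. The zinc transporter Slc30a8 had medians of 527 TPM in score-high and 473 TPM in score-low cells and a log2 ratio of -0.22. Pcsk1n, an inhibitor of Pcsk1, was the 1 member at least 1.5-fold lower (-1.01).

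Transcription factors that keep beta-cell identity did not stand above all genes. By counts, the members with a mean of 10 TPM or above lay below all genes. Of 19, 11 reached that mean. Of these, 1 was at least 1.5-fold higher and 4 lower, where 41.1% and 20.9% of all genes were. The list median was 0.09, against 0.33 for all genes. The 4 lower were Nkx6-1 (-1.24), Isl1 (-0.86), Rfx6 (-2.07) and Mlxipl (-1.20), and the 1 higher was St18 (0.75). Most were rare transcripts. Nkx6-1 was at TPM 1 or above in 21 score-high and 16 score-low cells, although its mean was 5.65 TPM in score-high and 14.8 TPM in score-low cells. Mlxipl, a glucose-responsive factor, which stood at -1.14 after adjustment, was at TPM 1 or above in 17 score-high and 32 score-low cells. Pdx1, which binds the insulin promoter, reached that level in 16 score-high and 14 score-low cells, and Mafa in 1 score-high and 0 score-low cells. After adjustment the list median was 0.12, against 0.05, with 1 higher and 5 lower of 11, where 30.3% and 28.2% of all genes were.

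Genes of glucose sensing and secretion coupling did not stand apart from all genes. Of 12 members at a mean of 10 TPM or above, 5 were at least 1.5-fold higher and 1 lower, where 41.1% and 20.9% of all genes were, and the list median was 0.25, against 0.33. After adjustment 5 of 11 were higher and 1 lower, with a median of 0.02, against 0.05. G6pc2, the islet glucose-6-phosphatase, spanned 238 to 3280 TPM with a median of 1295 in score-high cells, and 16.3 to 2791 TPM with a median of 449 in score-low cells. Its log2 ratio was 0.88, or 0.63 after adjustment, and 30 of 34 score-high cells lay above the score-low median. Cltrn, a membrane glycoprotein of beta cells, had medians of 698 TPM in score-high and 160.3 TPM in score-low cells and a log2 ratio of 1.15, or 0.89 after adjustment. The glucose transporter Slc2a2 had a log2 ratio of -0.06, made of 2.60 within cells 1 to 54 and -0.51 within cells 55 to 138. Ucn3, a peptide hormone and marker of mature beta cells, had medians of 336 TPM in score-high and 291 TPM in score-low cells and a log2 ratio of 0.07. The sulfonylurea receptor Abcc8 stood at 0.80, and the incretin receptor Gipr, seen in 10 score-high and 17 score-low cells, at -1.67.

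Transcripts of the mitochondrial genome were lower in score-high cells. They made up 7.92% ± 4.41 of TPM in score-high and 11.9% ± 5.30 in score-low cells (SD between cells, n = 34 each). Within cells 55 to 138 the share was 8.15% ± 4.71 in score-high and 13.2% ± 3.70 in score-low cells, and within cells 1 to 54 it was 7.54% ± 4.02 in score-high and 9.72% ± 6.81 in score-low cells. The difference was larger than the spread between cells within cells 55 to 138, and smaller than it within cells 1 to 54 and over both. After adjustment the shares were 8.75% in score-high and 11.5% in score-low cells. mt-Nd4, a complex I subunit, had medians of 2838 TPM in score-high and 5466 TPM in score-low cells and a log2 ratio of -0.98. Of the 13 coding genes, 0 were at least 1.5-fold higher and 6 lower, where 41.1% and 20.9% of all genes were, with a median of -0.58, against 0.33. After adjustment 0 were higher and 2 lower, a share below the 28.2% of all genes, with a median of -0.40, against 0.05. The mitochondrial genome is transcribed as long joint precursors, so these genes are not independent of each other. Nuclear genes of the respiratory chain lay near all genes, with 15 of 30 at least 1.5-fold higher, 0 lower and a median of 0.50. After adjustment 8 of 30 were higher and 2 lower, against 30.3% and 28.2%, with a median of 0.12.

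Cytosolic heat shock proteins were not higher with the ER chaperones. Of 19, 18 had a mean of 10 TPM or above, 3 of these were at least 1.5-fold higher and 8 lower, where 41.1% and 20.9% of all genes were. After adjustment 4 of 18 were higher and 10 lower, against 30.3% and 28.2% of all genes. The list median was -0.41, or -0.69 after adjustment, against 0.33 and 0.05 for all genes. As a difference of mean log2(TPM + 1) it was 0.34, also below the 0.58 of all genes. Hspa1a and Hspa1b, the inducible Hsp70 genes, which are near-identical copies with shared reads, stood at -2.07 and -1.98. Hspa1a was at TPM 1 or above in 4 score-high and 11 score-low cells. The mitochondrial cochaperonin Hspe1 stood at 1.09.

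The remaining lists did not stand out above all genes. After adjustment, when all genes had a median log2 ratio of 0.05, the list medians were -0.28 for cytosolic ribosomal proteins, -0.05 for the proteasome, 0.19 for sterol and fatty acid synthesis, -0.06 for antioxidant genes, -0.24 for immediate early genes, -0.20 for apoptosis and -0.55 for lysosome and autophagy. The lysosomal median was 0.51 before adjustment. Macrophage markers moved with the adjusted value, and their part in it was not tested. The 8 markers summed to a mean of 12.2 TPM (highest 119 TPM) in adjusted score-high cells and 1368 TPM (highest 19915 TPM) in adjusted score-low cells, and reached 100 TPM in 2 adjusted score-high and 5 adjusted score-low cells. Among antioxidant genes, the metallothioneins Mt1 and Mt2 stood at -1.65 and -1.78, but within cells 55 to 138 at -0.33 and 0.02. Prdx5, a peroxiredoxin, stood at 3.05. Of the immature or disallowed genes, Npy at -2.27 came almost wholly from 1 cell and stood at 3.47 after adjustment, and Cd81 stood at -1.30.

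The 10 genes that followed the score most closely in both stretches were Mdh1, Srpr, Kdelr2, Bet1, Tmed3, Pdia6, Hdlbp, Mydgf, B9d1 and Spcs1, whose weaker rho of the 2 stretches lay between 0.40 and 0.44. Mdh1, the cytosolic malate dehydrogenase, spanned 0.383 to 1449.6 TPM with a median of 359 in score-high cells, and 0 to 705 TPM with a median of 45.4 in score-low cells, a log2 ratio of 1.86, or 1.37 after adjustment. Tmed3, a cargo receptor of early secretory vesicles, had medians of 531 TPM in score-high and 62.4 TPM in score-low cells, and Spcs1, a signal peptidase subunit, 542 TPM in score-high and 69.7 TPM in score-low cells. Hdlbp, which encodes the RNA-binding protein vigilin, had a log2 ratio of 1.30, and Mydgf, an ER-resident growth factor, 1.47. All 10 were at least 1.5-fold higher after adjustment, where most of the cells are the ones that chose these genes, and 7 of the 10 among old cells, where 53.6% of all genes were. At the other end were mt-Nd4, mt-Nd6, mt-Co2 and the pseudogenes Rn4.5s-ps2 and Rpl17-ps8. mt-Nd6 overlaps genes on the other strand, and its reads cannot be told from theirs without strand.

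Among the genes eligible by the naming rule, which leaves out those with much of their total in 1 cell or with unlike signs between stretches, the highest ratios belonged to sparser genes. Tuba4a, an alpha tubulin, had a mean of 63.5 TPM in score-high and 3.51 TPM in score-low cells, a log2 ratio of 3.84, and was at TPM 1 or above in 19 score-high and 9 score-low cells. It was followed by Tmem176a (3.57), the flap endonuclease gene Fen1 (3.53), the ciliary gene B9d1 (3.41), the signalosome subunit Cops8 (3.38), the aldose reductase Akr1b3 (3.26), the tRNA synthetase genes Dars (3.09) and Iars (3.05), Prdx5, Alg5, the ciliary gene Iqcb1 (2.92) and Fkbp11. All 12 were at least 1.5-fold higher after adjustment, in which 26 of the 34 score-high and 28 of the 34 score-low cells are those that chose these genes, so this count was nearly fixed. Among old cells 9 of 12 were, where 53.6% of all genes were. After Hspa1a and Hspa1b, the lowest ratios among eligible genes were those of Lonp2 (-1.88), Ddx55 (-1.80), Fkbp8 (-1.69), Zfyve21 (-1.62), Tm2d3 (-1.60), Atp2c1 (-1.59), Zmym2 (-1.54), Ppm1g (-1.53), Dctn2 (-1.51) and Rtl8c (-1.51). Of these 12, 2 were at least 1.5-fold lower among old cells, where 21.1% of all genes were, and single cells held much of their totals, up to 24.9% for Ddx55. Medians were higher in score-high cells for Lonp2, Zfyve21 and Ppm1g (1.25 against 0.15 TPM). They were 0 TPM in both groups for Hspa1a and Hspa1b, and lower in score-high cells for the rest. Zfyve21, Tm2d3, Atp2c1, Ppm1g and Dctn2 were at TPM 1 or above in more score-high than score-low cells. In all, 965 genes were eligible on the higher and 140 on the lower side.

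The old cells were ranked by the same 8 genes within stretches, giving 17 score-high and 17 score-low cells with scores of 7.32 ± 0.781 in score-high and 3.58 ± 0.808 in score-low cells. Detected genes differed more than in young cells, with medians of 4555 in old score-high and 3355 in old score-low cells. Of 4953 genes tested, 53.6% were at least 1.5-fold higher and 21.1% lower, with a median log2 ratio of 0.75. The other ER folding factors had a median of 1.62, N-glycosylation genes 1.43, translocon genes 1.52 and ER-to-Golgi traffic 1.59. With the old score adjusted for detected genes, the ER folding factors stood at 0.67. The medians of all genes and of the other lists are not given for that ranking, so 0.67 has no background beside it. The insulin share of TPM was 51.6% ± 10.1 in old score-high and 53.9% ± 10.2 in old score-low cells, and the mitochondrial share 8.69% ± 5.29 in old score-high and 17.4% ± 6.02 in old score-low cells.

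Of the 2124 genes at least 1.5-fold higher in young score-high cells, 947 were so among old cells, which is 44.6% of the young and 35.7% of the old genes. For lower genes the overlap was 185, or 17.2% of the young and 17.7% of the old genes. Of the 3847 genes tested at both ages, 53.4% were at least 1.5-fold higher and 17.1% lower in old score-high cells. Of those among them that were higher in young cells, 62.5% were also higher in old cells, and of those lower in young cells, 28.8% were also lower, so both shares lay modestly above the general ones. Some genes stood differently in old cells. Xbp1 had a log2 ratio of 2.03 there, against 0.09 in young cells, Atf4 1.72 against -0.37 and Hspa1a 2.56 against -2.07, and cytosolic heat shock genes had a median of 1.05 against -0.41. These differences between the ages were not tested. All genes had a median of 0.75 in old and 0.33 in young cells, and detected genes differed more between the old groups. Hspa1a had a mean of only 4.99 TPM in old score-high and 0.018 TPM in old score-low cells, below the 10 TPM used for counts.

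Defining markers of beta cells were present in both groups, with Ins1, Ins2, Iapp, Ucn3 and G6pc2 at TPM 1 or above in all 34 score-high and all 34 score-low cells. Markers of other cell types were present in both groups at unequal levels. The 9 alpha-cell markers summed to a median of 1258 TPM (range 95.0 to 4458) in score-high and 740.0 TPM (range 6.91 to 2373) in score-low cells. Such a sum is weighted to the most abundant members. The median log2 ratio over the 7 alpha-cell markers at a mean of 1 TPM or above was -0.0093, against 0.33 for all genes. After adjustment it was 0.03, against 0.05. The 8 ductal markers summed to a median of 218 TPM in score-high and 97.9 TPM in score-low cells, with Krt19, Cftr and Muc1 at 0 in both groups, and the 6 delta-cell markers to 43.7 TPM in score-high and 73.0 TPM in score-low cells. The 8 macrophage markers reached 100 TPM in 5 score-high and 4 score-low cells, with a highest sum of 7452 TPM in score-high and 10594 TPM in score-low cells. Pancreatic polypeptide cell markers summed to a median of 22.3 TPM in score-high and 34.3 TPM in score-low cells. Acinar, endothelial, epsilon and erythrocyte markers had a median of 0 TPM in both groups and at most 34.8 TPM in a cell. Stellate and Schwann cell markers also had a median of 0 TPM, with highest sums of 0.355 and 16.7 TPM in score-high and 210.1 and 450.1 TPM in score-low cells. Their part in the differences was not tested. Leaving out the cells with macrophage markers at 100 TPM or above and ranking again gave a median of 1.06 for the ER folding factors and 0.39 for all genes.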

How the data were processed

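Per the labels' protocols, SMARTer chemistry made the cDNA and Nextera XT the libraries. The submitters' processing notes name CASAVA 1.8.2, FastQC and the build GRCm38 (mm10), while aligner, counter and annotation were not given in the sources used here. TPM values of all 207 cells stand in 1 table deposited by the authors, with 0 columns unused. TPM is scaled to 1000000 per cell after division by transcript length, so read depth is unknown, detected genes (TPM 1 or above) were the only sign of it, and a high transcript lowers the rest. Of 44448 rows, 39725 matched a symbol in a RefSeq table of GRCm38.p6, whose coordinates and promoter windows were used.

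Ratios are log2((mean TPM of score-high cells + 1)/(mean TPM of score-low cells + 1)), a scale on which low genes differ by less than their true fold. Counts over all genes cover those with a mean of 10 TPM or above in either group, leaving out the 8 score genes. List medians cover members with a mean of 1 TPM or above in either group, and 1 listed symbol (Copd) was not matched. No p-value or standard error was computed, since each age is 1 sample, and counts past 1.5-fold describe size. The members, the 23 pathway and 11 marker lists, the stretches of cell numbers and the alternatives were chosen with earlier results of these data known.

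Old cells were ranked within cells 159 to 190 joined with 200 to 207, and within 139 to 158 joined with 191 to 199. The stretches differ in technical measures, for example in mean Malat1, a nuclear noncoding RNA, at 313 TPM in cells 1 to 54 and 3231 TPM in cells 55 to 138.

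Genes were named by rule from those with a mean of 10 TPM or above, detected in at least 25% of the cells of the higher group, with no cell holding over 25% of that group's total, and with the same sign of the ratio, of the difference of mean log2(TPM + 1) and of the ratio within each stretch. Taken were the 12 highest and the 12 lowest ratios, the 10 highest and the 5 lowest weaker rhos with the score, and, from the lists, any member of the folding, sensor, insulin, granule, transcription factor and glucose lists and the 2 highest and 2 lowest of the others. No cell was left out and no doublet caller was run. The ratio and the ranking were tested on simulated data. Python 3.11.15, numpy 2.4.6, pandas 2.3.3 and matplotlib 3.10.9 were used.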

Additional observations from a re-analysis of the deposited data

How the results depend on the processing

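Over 24 alternatives, of which 1 (leaving out cells with macrophage markers) was chosen after the data had been seen, the ER folding factors had medians between 0.67 and 1.61, N-glycosylation genes between 0.73 and 1.75, translocon genes between 0.72 and 1.89 and ER-to-Golgi traffic between 0.55 and 1.60. Granule genes ranged from 0.18 to 1.11, integrated stress response targets from -0.21 to 0.62, beta-cell transcription factors from -0.33 to 0.31 and cytosolic heat shock genes from -0.69 to 0.59. The median of all genes itself ran from 0.02 to 0.91. With it subtracted, ER folding factors lay between 0.29 and 0.90 and N-glycosylation genes between 0.43 and 1.00. Translocon genes then lay between 0.35 and 1.32, ER-to-Golgi traffic between 0.21 and 1.03 and granule genes between 0.09 and 0.47. Integrated stress response targets lay between -0.49 and 0.19 and beta-cell transcription factors between -0.82 and 0.09. The insulin share in score-high minus score-low cells ranged from -8.38 to 2.89 percentage points.

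The values below moved by more than the spread between cells, or were counts that moved by over 1.5 times, or genes that changed sign. The cause was not tested. With the difference of mean log2(TPM + 1), 149 of 5164 genes (2.89%) were at least 1.5-fold lower, the score genes stood at 3.14 and the immature or disallowed genes at -0.22. With a minimum mean of 1 TPM, which admits more genes, 4576 were higher and 2718 lower of 11767. These were 38.9% and 23.1%, near the 41.1% and 20.9% reported. With no minimum the immature or disallowed genes stood at -0.0094. With TPM rescaled without insulin and mitochondrial genes, 2671 of 8537 genes (31.3%) were lower. Stress sensors stood at 0.23 with a pseudocount of 10, 0.028 ranked within 4 stretches, 0.18 without cells 40 to 54, 0.21 adjusted for detected genes and 0.22 with Herpud1 left out of the score. With the top and bottom 10%, the score difference was 4.04, score genes stood at 3.34, ER-associated degradation at 1.40, apoptosis at 1.58 and immature or disallowed genes at -4.74, and 3 genes changed sign, Zfyve21 (0.35), Tm2d3 (1.72) and Ppm1g (1.77). Within cells 1 to 54, detected genes differed by 1652, score genes stood at 3.89 and immature or disallowed genes at -0.29. The last list, of 3 genes, stood at -1.04 ranked over all young cells, -1.08 with Sdf2l1 and -1.03 with Herpud1 left out of the score, and -1.10 without the cells with macrophage markers. Apoptosis stood at -0.29 with Sdf2l1 left out and at -0.20 adjusted for detected genes, where lysosome and autophagy stood at -0.55 and the old ER folding factors at 0.67. With the score from summed TPM, the score difference was 2.08 and Hspa1b changed sign (0.96).

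Of 979 values of 41 named genes, 963 were counted as the same, 12 as moved by more than the spread between cells and 4 as changed in sign. That spread, the SD of log2(TPM + 1) between cells, was wide, for example 3.29 for Tm2d3 and 2.45 for Tuba4a. Tuba4a ran from 0.92 to 5.21 over 24 alternatives and 20 of these were still counted as the same. The count of 963 therefore says little about how stable the ratios are. No paired analysis was possible because the labels name no animal and cell numbers pair no cells. Leaving out replicates was not run, since each age is 1 sample.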
